A study of Mus musculus with 696 samples.

Results

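The comparison described here is the resolution of the first wound, 8w pw1 (8 weeks after a full-thickness wound of mouse tail skin) against 1w pw1 (1 week after it), in single cells of the Lrig1 lineage (Lrig1 GL cells). Its members are all cells of the 4 plates that the labels put at these 2 time points, 89 and 79 cells at 1w pw1 (168 cells) and 85 and 87 cells at 8w pw1 (172 cells), which is 340 of the 696 cells deposited on 8 plates. The cells came from female mice of a CBA C57BL/6 mixed background that carried Lrig1-EGFP-ires-CreERT2 and Rosa26-fl/STOP/fl-tdTomato, and all groups shared these alleles and a single topical dose of hydroxytamoxifen on the tail at 6 to 8 weeks of age. Cre is driven by Lrig1, so tdTomato marks cells that used Lrig1 at labelling and their progeny, and a marked cell no longer has to express Lrig1. A 2 mm punch wound was made 1 week after labelling. The marked cells were sorted from tissue that held both the wound bed and the distal HFs, so a plate mixes both places, and the labels do not say how many animals stand behind a plate. The other 4 plates, 179 cells of unwounded skin (0w) and 177 cells taken 1 week after a second wound (1w pw2), entered the fit for their spread. Their levels are given as a reference, and 1w pw1 and 8w pw1 were also tested against 0w in that fit. In sample titles 1 letter is shared by both plates of a time point, and whatever it stands for cannot be told apart from the time point.

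Lrig1 marks stem cells of the upper HF, in the junctional zone (JZ) between the bulge and the infundibulum (INFU). After a wound such cells leave the follicle, move into the new interfollicular epidermis (IFE) and switch on a set of wound genes: the stress keratins, the antimicrobial and protease inhibitor proteins of inflamed epidermis, and the proteins of the cornified envelope. When a wound closes, most of these genes return to low levels, and the anchoring of basal cells to the basement membrane by integrins, collagens and laminins is restored. The comparison asks which of the healing genes were low again by week 8 and which genes of the HF had come back.

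Smart-seq2 reads were not counted by molecule. Intervals and limits given here cover counting error only, and those on counts treat each read as independent, so they may be too narrow. Estimated counts summed to 18924831 and 19760763 on the 1w pw1 plates and to 12293095 and 15612273 on the 8w pw1 plates. Cells were deeper at 1w pw1, with a median of 180800 and 256588 counts per cell, than at 8w pw1, with 105583 and 64980, and on 8w pw1 replicate 2 1 cell supplied 12.1% of all counts. Replicate plates correlated with a Pearson r of 0.898 to 0.950 across genes, which are not independent replicates. Levels are CPM, a gene's counts relative to the TMM-scaled plate total, and are given plate by plate, replicate 1 first, with the 1w pw1 pair before the 8w pw1 pair. The smallest p that 2 plates against 2 can give in an exact two-sided permutation test is 0.333, so calls rest on the spread that edgeR shares across genes. The methods of the study describe 2 independent experiments with several biological replicates each. No label ties a plate to an experiment or to animals, so the p-values measure the spread between plates, which may be technical. In plate sums, fewer cells of a type and less RNA per cell cannot be told apart.

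Of 13853 genes tested, 16 were called (edgeR quasi-likelihood test, p under 0.05 after Benjamini-Hochberg adjustment and more than 2-fold different), which is 0.115% of the genes. At 8w pw1, 10 genes were lower than at 1w pw1 (0.0722%) and 6 were higher (0.0433%). An unadjusted p below 0.05 was reached by 1531 genes (11.1%), 886 of them higher (6.4%) and 645 lower (4.66%). The median log2 fold change over all genes tested was 0.09. The 10 lower genes were Krt6b, Krt6a, Krt16, Cstdc6, Stfa2, Stfa3, Sprr1b, Gjb2, Calm4 and 2610528A11Rik, and the 6 higher genes were Thbs1, Itga2, Matn2, Lama4, Vsir and Slc44a3. In all 16 genes the 2 plates of 1 time point lay on the same side of the 2 plates of the other, as they did for 41.8% of the genes tested. The count rests on all 4 plates: without 8w pw1 replicate 1 or without 8w pw1 replicate 2 it was 0 (with 1563 and 1465 genes at an unadjusted p below 0.05, and 561 calls by DESeq2 on all plates), without 1w pw1 replicate 1 it was 1 (Krt6b), and without 1w pw1 replicate 2 it was 4. With the replicate number as a block it was 110 (66 higher, 44 lower), all 16 among them, and the counts given here are without the block.

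The lower genes kept their call more often than the higher ones under 2 other settings. When only the 4 plates compared were fitted, all 6 higher genes lost their call (adjusted p from 0.0543 to 0.0892), as did Calm4, Stfa3, Krt6a and Gjb2 (adjusted p from 0.0586 to 0.0894). The log2 fold changes of these genes stayed close to those of the main fit. They were 4.69 for Thbs1, 4.39 for Itga2, 3.75 for Matn2, 6.92 for Lama4, 6.48 for Slc44a3 and 11.35 for Vsir. On the lower side they were -3.56 for Calm4, -6.38 for Stfa3, -3.73 for Krt6a and -5.15 for Gjb2. A stricter filter on cells (2000 genes or more, 20% mitochondrial counts or less) left 43 and 31 cells at 1w pw1 and 45 and 33 at 8w pw1. On the other plates, which enter the fit for their spread, it left 37 and 9 cells at 0w and 58 and 57 at 1w pw2. With this filter Thbs1 was the 1 higher gene of the 6 still called. There the log2 fold change of Matn2 was 1.16 (adjusted p = 0.735), that of Itga2 2.14 (adjusted p = 0.586) and that of Slc44a3 4.74 (adjusted p = 0.497). Lama4 and Vsir lost their call at log2 fold changes of 9.73 and 8.47 (adjusted p = 0.213 and 0.246), against 6.95 and 11.46 in the main fit. Calm4, Stfa3 and Krt6a lost their call there as well (adjusted p = 0.198, 0.0560 and 0.104). Their log2 fold changes were then -3.14, -7.97 and -3.92, against -3.54, -6.35 and -3.71 in the main fit.

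**Figure D1:**
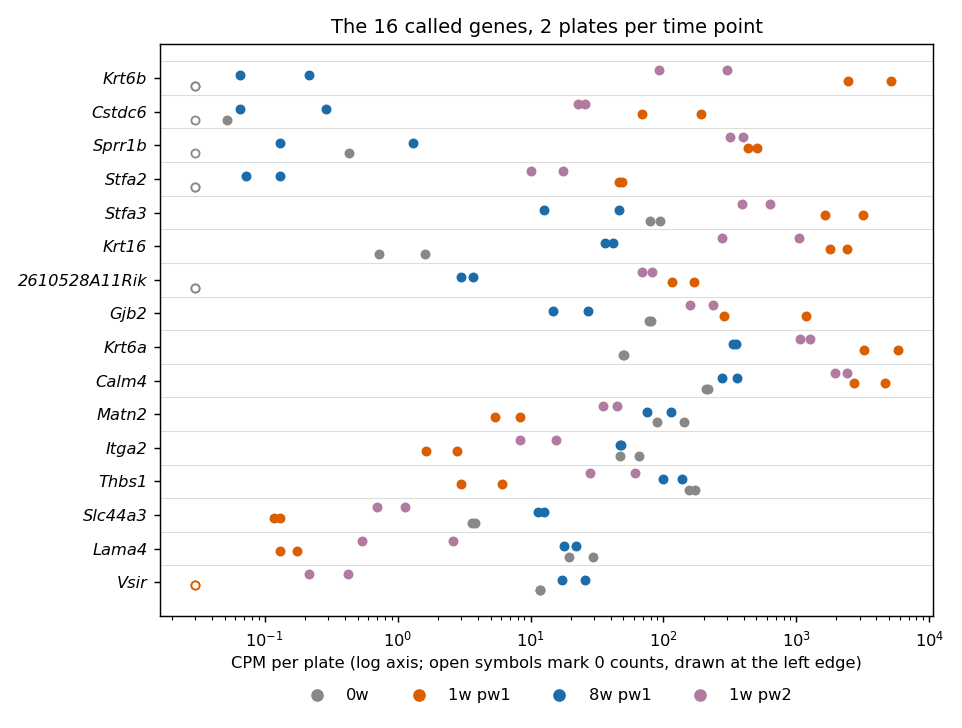
Levels of the 16 called genes on each plate, in CPM on a log axis, with 2 plates (points) for each of the 4 time points and open points at the left edge for plates with 0 counts. The 1w pw1 and 8w pw1 points do not overlap in any row. Both 8w pw1 points lie to the right of both 0w points for Krt6a, Krt6b, Krt16, Cstdc6, Stfa2, Calm4, 2610528A11Rik, Vsir and Slc44a3, to their left for Stfa3, Gjb2 and Thbs1, and overlap them for Sprr1b, Itga2, Matn2 and Lama4.

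The stress keratins Krt6a, Krt6b and Krt16 are intermediate filament proteins that keratinocytes make at a wound edge. Krt6b (chr15:101676023-101680287, GRCm38) stood at 5141 and 2464 CPM at 1w pw1 and at 0.216 and 0.0652 CPM at 8w pw1. These last values are 4 counts in all, against 120699 counts at 1w pw1, and no count was seen on either 0w plate. The log2 fold change of Krt6b was -14.67 ± 1.15 (SE, edgeR adjusted p = 0.00606), the lowest of all genes tested.

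Krt16 (chr11:100246091-100248902) stood at 2421 and 1776 CPM at 1w pw1 and at 42.05 and 36.1 CPM at 8w pw1, a log2 fold change of -5.75 ± 0.76 (SE, edgeR adjusted p = 0.0284). Krt6a (chr15:101689910-101694307) stood at 5798 and 3230.0 CPM and then at 334 and 354 CPM, a log2 fold change of -3.71 ± 0.48 (SE, edgeR adjusted p = 0.0284). Both had levels at 8w pw1 above both 0w plates, where Krt16 had 0.727 and 1.62 CPM and Krt6a 49.9 and 50.7 CPM. These differences from 0w were not called (log2 fold change 5.05, adjusted p = 0.177, and 2.77, adjusted p = 0.218). Krt17, the fourth stress keratin and also a keratin of the normal HF, had 1260.1 and 1072 CPM at 1w pw1 and 1023 and 852 CPM at 8w pw1 and was not called (log2 fold change -0.31 ± 0.52, adjusted p = 0.868). Krt6a and Krt6b are near copies: 51.3% of the 31-base words of Krt6a and 57.0% of those of Krt6b also occur in other genes, mostly in each other, so an estimated count may be split between them with error. Krt16 shares 51.9% of its words, most of them with the gene model Gm11597. Of the list of 4 stress keratins, 3 were called lower (0.0722% of all genes tested were) and the median log2 fold change was -4.73. The lists here and below were chosen with earlier results of these data known.

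Stefins inhibit cathepsin proteases, and the mouse carries a cluster of them on chromosome 16. Stfa3 (chr16:36450537-36455392) stood at 3141 and 1647 CPM at 1w pw1 and at 46.1 and 12.5 CPM at 8w pw1, a log2 fold change of -6.35 ± 0.78 (SE, edgeR adjusted p = 0.0224). Stfa2 (chr16:36403992-36408457) stood at 46.3 and 48.4 CPM at 1w pw1. At 8w pw1 it had 3 counts in all, and the ratio of 1w pw1 to 8w pw1 was 462 with a 95% counting interval of 158 to 2241 (adjusted p = 0.0189). Cstdc6, another gene of this family (chr16:36321665-36334332 in RefSeq), stood at 192 and 68.7 CPM and then at 0.288 and 0.0652 CPM, with a log2 fold change of -9.50 ± 1.01 (SE, edgeR adjusted p = 0.0179). Stfa2 and Cstdc6 were at or near 0 on both 0w plates. Stfa3 differed from them, with 94.8 and 78.6 CPM at 0w, so both of its 8w pw1 plates were below both 0w plates (log2 fold change -1.57, adjusted p = 0.737, not called). Stfa2 shares 33.3% of its 31-base words, mostly with Stfa2l1, and Stfa3 shares 0.

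To show what stands before the start of genes that fell together, windows upstream of 3 RefSeq start sites are printed. They are those of Stfa2 (chr16:36408364-36408613), Stfa3 (chr16:36455393-36455642) and Sprr1b (chr3:92438780-92439029), all on the minus strand of GRCm38.p6. Capitals mark 3 motifs searched on both strands: TGANTCA for AP-1, GGAATG, the letters bound by TEAD factors, and TATAAA, the TATA box. TGANTCA is a loose form of the AP-1 letters, since N takes any base where those hold C or G. RefSeq gave such a window for 9 of the 16 called genes, and the GENCODE models of Stfa2, Sprr1b and Slc44a3 begin inside theirs. The window of 2610528A11Rik lies wholly within its GENCODE model.
Stfa2: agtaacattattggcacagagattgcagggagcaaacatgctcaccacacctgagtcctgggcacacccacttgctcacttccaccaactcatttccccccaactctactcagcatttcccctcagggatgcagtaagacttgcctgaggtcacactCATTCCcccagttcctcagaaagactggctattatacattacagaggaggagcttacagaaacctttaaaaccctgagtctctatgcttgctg
Stfa3: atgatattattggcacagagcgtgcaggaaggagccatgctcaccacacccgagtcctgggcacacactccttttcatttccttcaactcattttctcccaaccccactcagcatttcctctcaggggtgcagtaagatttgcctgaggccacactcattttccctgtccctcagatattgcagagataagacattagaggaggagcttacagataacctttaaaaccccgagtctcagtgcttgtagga
Sprr1b: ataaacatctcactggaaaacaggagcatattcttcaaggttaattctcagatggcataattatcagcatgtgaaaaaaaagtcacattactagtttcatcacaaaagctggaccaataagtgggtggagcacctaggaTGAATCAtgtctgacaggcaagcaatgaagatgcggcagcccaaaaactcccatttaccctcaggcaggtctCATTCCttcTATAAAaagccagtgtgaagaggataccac
The Sprr1b window holds all 3 motifs, with first bases 111 (AP-1), 39 (TEAD, on the other strand) and 30 (TATA box) bases before the start. Its AP-1 match, TGAATCA, has A in the middle and so meets the loose form alone. The Stfa2 window holds the TEAD letters alone, 93 bases before the start and on the other strand, and the Stfa3 window holds none of the 3, although 203 of 253 aligned columns (80.2%) of these 2 windows are identical. Over the 9 windows of called genes, 1 held the loose AP-1 letters (Sprr1b), 4 the TEAD letters and 2 the TATA box. Over the 6 of lower genes these were 1, 3 and 2. Of 32851 windows of the same length, 6.75% hold the loose AP-1 letters, 12.6% the TEAD letters and 12.4% the TATA box. A match is a description of the letters and not a site.

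The list of alarmins and stefins held 10 tested genes, and its median was -6.16. Of these, 9 had a negative log2 fold change (46% of all genes tested had this sign). At an unadjusted p below 0.05, 9 were lower (4.66% of all genes). Stfa2 and Stfa3 were the 2 that passed the test, as 0.0722% of all genes did in this direction. S100a8, a subunit of calprotectin, had 12200.2 and 2635 CPM at 1w pw1 and 315 and 0.1305 CPM at 8w pw1, and its partner S100a9 had 1969.7 and 276 CPM and then 10.01 and 0 CPM. On 8w pw1 replicate 1 S100a8 was far above replicate 2, and neither gene was called (adjusted p = 0.368 and 0.188). The stefins Stfa1, at 1877 and 876 CPM and then 83.9 and 5.48 CPM, and Csta1, at 910.3 and 306 CPM and then 30.5 and 7.76 CPM, were not called either. Csta3 had 2 counts at 8w pw1, and its ratio of 1w pw1 to 8w pw1 was 2682 with a 95% counting interval of 742 to 22152 (adjusted p = 0.0567). Lcn2, a siderophore-binding protein of inflamed epithelia, was the exception of the list, with 25.4 and 11.4 CPM and then 28.1 and 13.05 CPM and overlapping plates.

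Sprr1b, a small proline-rich protein that transglutaminases cross-link into the cornified envelope (chr3:92436809-92438789), stood at 434 and 503 CPM at 1w pw1 and at 1.296 and 0.1305 CPM at 8w pw1. Both 8w pw1 values were close to those at 0w (0 and 0.432 CPM), and the log2 fold change was -9.36 ± 1.24 (SE, edgeR adjusted p = 0.0284). It was the only gene called among the 22 tested genes of the cornified envelope list (0.0722% of all genes were called lower). Of these 22, 17 had a negative log2 fold change (46% of all genes), 9 of them at an unadjusted p below 0.05 (4.66%). The median of the list was -4.01 (-3.82 with genes at 0 in 1 group set to their bound), and over the alternative settings it ran from -7.47 to -0.98. Sprr2a2 had 2342 and 2256 CPM at 1w pw1 and 223 and 12.3 CPM at 8w pw1, against 0.208 and 0.2697 CPM at 0w (not called). Sprr1a, of the same protein family, had 1524 and 1264 CPM and then 1029 and 295 CPM, and its plates did not overlap (log2 fold change -1.07 ± 0.69, adjusted p = 0.611). Involucrin (Ivl), a scaffold of the envelope, had overlapping plates at 21.8 and 33.6 CPM and then 46.9 and 23.7 CPM.

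Gjb2 (chr14:57098600-57104702), a connexin of gap junctions, stood at 1178 and 287 CPM at 1w pw1 and at 27.1 and 14.9 CPM at 8w pw1, a log2 fold change of -5.13 ± 0.76 (SE, edgeR adjusted p = 0.0449). Both 8w pw1 plates were below the 0w plates (77.5 and 80.5 CPM), a difference that was not called (adjusted p = 0.7001). The gene 2610528A11Rik (chr14:37102140-37114022), which encodes a secreted ligand of the receptor GPR15, stood at 169 and 117 CPM and then at 3.67 and 3.001 CPM, with no count on the 0w plates. Its log2 fold change was -5.42 ± 0.58 (SE, edgeR adjusted p = 0.01997).

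Calm4, a calcium-binding protein of differentiating keratinocytes (chr13:3837757-3838673), stood at 2716 and 4677 CPM at 1w pw1 and at 278 and 356 CPM at 8w pw1, with 218 and 210.3 CPM at 0w. Its log2 fold change was -3.54 ± 0.48 (SE, edgeR adjusted p = 0.0286), and 11% of its 31-base words are shared with Calm5. Calm4 was the 1 gene called of the 21 on the epidermal differentiation list (0.0722% of all genes were called lower). Of the 21, 15 had a negative log2 fold change (46% of all genes), 9 of them at an unadjusted p below 0.05 (4.66%), and the median was -0.94. The members of this list summed to 95424 and 80865 CPM at 1w pw1 against 9810 and 9669 CPM at 8w pw1. Krt10, the main keratin of suprabasal cells, had 21379 and 24017 CPM and then 2257 and 3034 CPM, and its partner Krt1 had 5989 and 7177 CPM and then 734 and 154 CPM. The fatty acid carrier Fabp5 had 43893 and 24010.3 CPM at 1w pw1 and 488 and 1108 CPM at 8w pw1, both lower, although 0w itself ranged over 128 and 2737 CPM. None of these 3 was called (adjusted p = 0.118, 0.152 and 0.1401), but with the replicate block Krt10 and Krt1 were (adjusted p = 0.0216 and 0.0416). Krt2, a keratin of the upper epidermis, had 363 and 739 CPM at 8w pw1, below the 1w pw1 plates (3621 and 9213 CPM) and above the 0w plates (2.08 and 9.39 CPM), and was not called in either contrast (adjusted p = 0.0481 against 1w pw1 with the replicate block).

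Genes just outside the threshold on the lower side included Fam162a, a mitochondrial protein induced by low oxygen, at 683 and 757 CPM and then 82.1 and 71.95 CPM (log2 fold change -3.22 ± 0.50, adjusted p = 0.0543). The peptidase Klk13 had 3 counts at 8w pw1, and its ratio of 1w pw1 to 8w pw1 was 592 with a 95% counting interval of 202 to 2873 (adjusted p = 0.06699). Rbp2, a retinol carrier, had 76.7 and 49.3 CPM and then 2.88 and 1.57 CPM (adjusted p = 0.0618). Ggct, an enzyme of glutathione breakdown, had 168 and 227 CPM and then 25.4 and 37.1 CPM (adjusted p = 0.0979).

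Clade B serpins, intracellular inhibitors of proteases, had a negative log2 fold change in 13 of 14 tested genes and a median of -2.07. Of them 0 were called, and 8 were lower and 1 higher at an unadjusted p below 0.05 (4.66% and 6.4% of all genes). The higher one was Serpinb9, with 0 and 0.176 CPM (3 counts in all) and then 1.08 and 0.913 CPM (adjusted p = 0.351). Serpinb12 had 265 and 647 CPM at 1w pw1 and 14.2 and 3.13 CPM at 8w pw1 (adjusted p = 0.0867), and Serpinb1a had 109 and 73.1 CPM and then 8.71 and 6.59 CPM (adjusted p = 0.0979). Serpinb3b stood apart from both, with 272 and 548 CPM at 1w pw1 and 182 and 409 CPM at 8w pw1 against 13.9 and 17.96 CPM at 0w. Its plates overlapped between the 2 time points (log2 fold change -0.47 ± 0.63, adjusted p = 0.827). Of the cytokines of injured epidermis, 14 were tested, 10 had a negative sign and 0 were called. Of these 10, 5 had an unadjusted p below 0.05 (4.66% of all genes were lower at this p). Their median was -1.09 and ran from -2.57 to -0.43 when a plate was left out. Il1f9, an interleukin of the epidermal alarm response, had 105 and 84.9 CPM and then 10.2 and 13.8 CPM, and Il1rn, the antagonist of the interleukin 1 receptor, had 82.4 and 50.9 CPM and then 13.5 and 5.68 CPM. Neither pair of plates overlapped (adjusted p = 0.1401 and 0.164).

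Of 15 glycolysis enzymes and transporters tested, 12 had a negative log2 fold change, 0 were called and the median was -0.81. Ldha, which makes lactate, had 671 and 940.1 CPM at 1w pw1 and 159 and 343 CPM at 8w pw1, and Eno1 had 305 and 198 CPM and then 69.4 and 90.9 CPM (adjusted p = 0.346 and 0.240). The glucose transporter Slc2a1 had overlapping plates at 84.7 and 48.6 CPM and then 66.5 and 51.5 CPM (log2 fold change -0.18 ± 0.47, adjusted p = 0.922). Of 18 hypoxia targets, 15 had a negative sign, 0 were called and the median was -0.78. P4ha1, a collagen hydroxylase, had a positive log2 fold change of 2.54 ± 0.70, with 5.56 and 5.21 CPM and then 14.98 and 47.9 CPM (adjusted p = 0.202), and its transcripts hold an A or T run of 27 bases, a feature described further on.

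**Figure D2:**
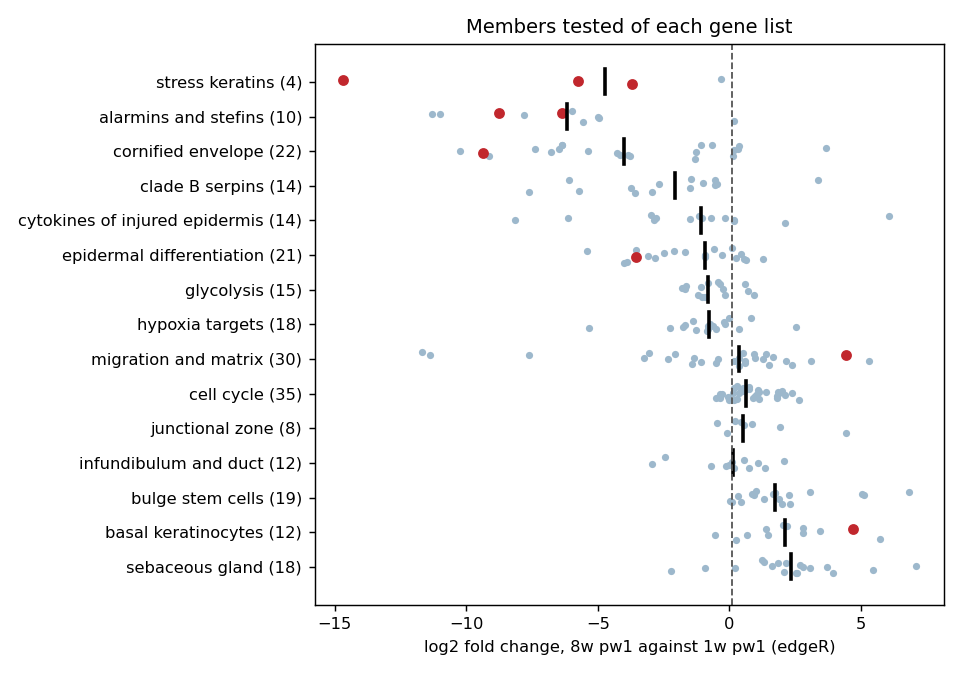
Log2 fold change of 8w pw1 against 1w pw1 for every tested member (points) of 15 gene lists, with the number tested in brackets, list medians as black bars, called genes in red and the median of all genes tested (0.09) as a dashed line. The stress keratins, alarmins and stefins, and cornified envelope genes lie mostly to the left with medians from -6.16 to -4.01, and the bulge, basal and sebaceous lists have medians from 1.72 to 2.34.

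The higher genes are described next, first the 3 that the rule for named genes admits. Thbs1, a thrombospondin (chr2:118111876-118127133), stood at 6.08 and 2.99 CPM at 1w pw1 and at 138 and 99.9 CPM at 8w pw1, a log2 fold change of 4.71 ± 0.64 (SE, edgeR adjusted p = 0.0286). Itga2, the alpha chain of a collagen-binding integrin (chr13:114833081-114932100), stood at 2.81 and 1.64 CPM and then at 48.02 and 46.97 CPM, a log2 fold change of 4.41 ± 0.64 (SE, edgeR adjusted p = 0.0447). Matn2, a matrilin that links fibres of the matrix (chr15:34306677-34436273), stood at 5.43 and 8.38 CPM and then at 115 and 74.9 CPM, a log2 fold change of 3.78 ± 0.56 (SE, edgeR adjusted p = 0.0449). On the 0w plates Thbs1 had 174 and 156 CPM, Itga2 65.99 and 47.1 CPM and Matn2 89.04 and 143 CPM. The 8w pw1 levels of Itga2 and Matn2 overlapped or lay beside those at 0w, and those of Thbs1 were a little under them, with log2 fold changes of 8w pw1 against 0w of -0.25, -0.29 and -0.47 (adjusted p = 0.963, 0.953 and 0.914).

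The other 3 higher genes, like 2610528A11Rik on the lower side, fall outside the rule for named genes, and they are named because the count is small. Lama4, a laminin chain of basement membranes (chr10:38965515-39110188), had 5 counts at 1w pw1, on each plate in a single cell, and 21.96 and 17.9 CPM at 8w pw1, a log2 fold change of 6.95 ± 1.01 (SE, edgeR adjusted p = 0.0447). Slc44a3, a transporter of the choline transporter-like family (chr3:121459528-121532404), had 4 counts at 1w pw1 and 11.3 and 12.5 CPM at 8w pw1 (adjusted p = 0.0492). Vsir, which encodes the immune checkpoint protein VISTA (chr10:60346851-60372684), had 0 counts at 1w pw1 and 25.5 and 17.2 CPM at 8w pw1, which is at least 228-fold higher against 3 counts over the 1w pw1 plates (adjusted p = 0.01997). On the 0w plates Vsir had 11.7 and 11.7 CPM, Slc44a3 3.63 and 3.83 CPM and Lama4 19.3 and 29.6 CPM. A single cell held 50.6% and 79.5% of the Vsir counts on the 8w pw1 plates and 74.5% and 57.3% of the Slc44a3 counts, so these levels rest on few cells. For Itga2 the deepest such cell held 31.9% and 59.6%, for Thbs1 22.3% and 25.0%, and for Krt6b at 1w pw1 41.0% and 27.8%.

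Genes just outside the threshold on the higher side differed in where they stood at 8w pw1 relative to 0w. Ackr4, a receptor that clears chemokines, had 2.68 and 2.93 CPM at 1w pw1 and 32.3 and 45.8 CPM at 8w pw1, with 36.7 and 33.8 CPM at 0w (adjusted p = 0.0543). Kitl, the ligand of the receptor Kit on melanocytes, had 3.86 and 3.75 CPM and then 53.7 and 36.1 CPM, with 38.99 and 52.9 CPM at 0w (adjusted p = 0.0618). Esr1, the estrogen receptor, had 2.35 and 6.56 CPM and then 105 and 63.2 CPM (adjusted p = 0.06699). Dclk1, Smoc2, Inpp4b, Ctnnal1, Ripply3, Trpv2, Cep97, Adh1 and Tns3 followed, with adjusted p from 0.0867 to 0.111 and log2 fold changes from 3.04 to 5.26. Over all of these genes the mean 8w pw1 level ran from 59.1% (Adh1) to 301% (Inpp4b) of the mean 0w level, with Esr1 at 156%, Trpv2 at 215%, Ripply3 at 229.5% and Cep97 at 252%. Cep97 was not low at 1w pw1, with 508 and 169 CPM there, 2469 and 3564 CPM at 8w pw1 and 1165 and 1232 CPM at 0w.

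Markers of the bulge, the stem cell niche of the lower HF, were higher in sign throughout. Of its 20 members, 19 could be tested, all 19 had a positive log2 fold change (54% of all genes tested), 13 had plates that did not overlap (21.5% of all genes tested did so in this direction), 8 had an unadjusted p below 0.05 (6.4% of all genes), and 0 were called. The median was 1.72, and it was positive in all 17 alternative settings, from 1.08 to 2.15. Members of this and the other lists were chosen with earlier results of these data known, so such counts are no independent support. Lgr5, a receptor for R-spondin on bulge stem cells, had 5.43 and 9.67 CPM at 1w pw1 and 35.7 and 39.8 CPM at 8w pw1, which was still under the 81.8 and 66.9 CPM at 0w (log2 fold change 2.32 ± 0.60 between the first 2, adjusted p = 0.1803). Postn, a matrix protein, had 94.2 and 127 CPM and then 731 and 321 CPM with 1220.5 and 430.1 CPM at 0w (log2 fold change 2.25 ± 0.65, adjusted p = 0.226). Wif1, a Wnt inhibitor, had 3 counts at 1w pw1, and its ratio of 8w pw1 to 1w pw1 was 121 with a 95% counting interval of 41.2 to 592 (adjusted p = 0.06699).

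The classical bulge keratin Krt15 differed less, with 403 and 149.6 CPM at 1w pw1 and 489 and 564 CPM at 8w pw1 (log2 fold change 0.93 ± 0.51, adjusted p = 0.549). Sox9, a transcription factor of HF stem cells, had overlapping plates at 57.1 and 82.7 CPM and then 61.4 and 89.6 CPM. Cd34, a surface marker of the bulge, had 7.97 and 1.93 CPM and then 10.01 and 14.4 CPM (adjusted p = 0.613). The summed level of the bulge list was 822 and 592 CPM at 1w pw1, 1988 and 1579 CPM at 8w pw1, and 3070 and 1731 CPM at 0w. Postn, which stands on this list but served as a marker of the INFU in the study, carried much of the sum. Without Postn the sums were 728 and 466 CPM, 1257 and 1258 CPM, and 1849.9 and 1301 CPM, all 18 other tested members had a positive sign, and their median was 1.68.

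Lrig1 itself had 17.0 and 30.4 CPM at 1w pw1 and 45.0 and 25.4 CPM at 8w pw1, so the plates overlapped (log2 fold change 0.57 ± 0.55, adjusted p = 0.749). The JZ list to which it belongs had 8 tested genes, 6 with a positive sign, 0 called and a median of 0.51. Genes of the INFU and the sebaceous duct had a positive sign in 7 and a negative sign in 5 of 12 members, 4 and 2 of them with plates that did not overlap (21.5% and 20.3% of all genes tested), with 0 called and a median of 0.12 whose sign depended on the setting. Krt79, a keratin of the INFU, had 3445 and 4837 CPM and then 2886 and 5211 CPM, and Cst6, a cystatin, had 10232 and 8526 CPM and then 9915 and 11194 CPM. Both genes stayed above their 0w plates (1114 and 1659 and 4451 and 3534 CPM), with log2 fold changes of 8w pw1 against 0w of 1.55 and 1.40 that were not called. Ly6a, the surface protein Sca-1 of the upper HF and IFE, had 747 and 493 CPM at 1w pw1 and 102 and 60.3 CPM at 8w pw1, with 102 and 31.5 CPM at 0w (log2 fold change -2.93 ± 0.66, adjusted p = 0.1401).

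Genes of basal keratinocytes and their anchoring complexes had a positive sign in 11 of 12 tested members (54% of all genes), with a median of 2.12. At an unadjusted p below 0.05, 6 were higher (6.4% of all genes). The thrombospondin Thbs1 was the 1 called (0.0433% of all genes were called higher). The summed level of the list overlapped between the time points, with 5912 and 4450 CPM at 1w pw1 and 5364 and 5760 CPM at 8w pw1. Krt5, the basal keratin, had 300.1 and 209 CPM at 1w pw1 and 724 and 612 CPM at 8w pw1 (adjusted p = 0.341). Its partner Krt14 had the opposite sign, with 4590.0 and 3587 CPM and then 2104 and 3423 CPM, both above the 0w plates (903 and 999 CPM). Col17a1, a collagen of hemidesmosomes, had 158 and 40.95 CPM and then 533 and 287 CPM (adjusted p = 0.422). The integrin chains Itgb4 and Itga3, which bind laminin, had 25.4 and 8.73 CPM then 144 and 145 CPM and 1.63 and 0.4101 CPM then 52.1 and 29.9 CPM (adjusted p = 0.239 and 0.121, and 0.0481 and 0.0215 with the replicate block). The migration and matrix list, which holds these 2 and Itga2, had 18 of 30 members with a positive sign and a median of 0.36. Without 8w pw1 replicate 1 the median of this list was -0.79. The matrix metalloproteinases Mmp9 and Mmp13 were seen on 1 of the 4 plates, where Mmp9 had 40.5 and 0 CPM and Mmp13 50.1 and 0 CPM at 1w pw1, with 0 counts on both 8w pw1 plates.

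Sebaceous gland genes had a positive sign in 16 of 18 tested members (54% of all genes), with 0 called and a median of 2.34. At an unadjusted p below 0.05, 10 of these genes were higher (6.4% of all genes). Their level differed between the 8w pw1 plates, with a summed 1263 and 4784 CPM, and in the same way between the 0w plates (1377 and 9142 CPM), while the 1w pw1 plates had 759 and 746 CPM. Scd1, a desaturase of lipid synthesis, had 336 and 138 CPM at 1w pw1 and 552 and 2282 CPM at 8w pw1 (adjusted p = 0.389). Oxtr, the oxytocin receptor, had 0.8498 and 0.703 CPM and then 45.9 and 23.7 CPM (adjusted p = 0.111).

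**Figure D3:**
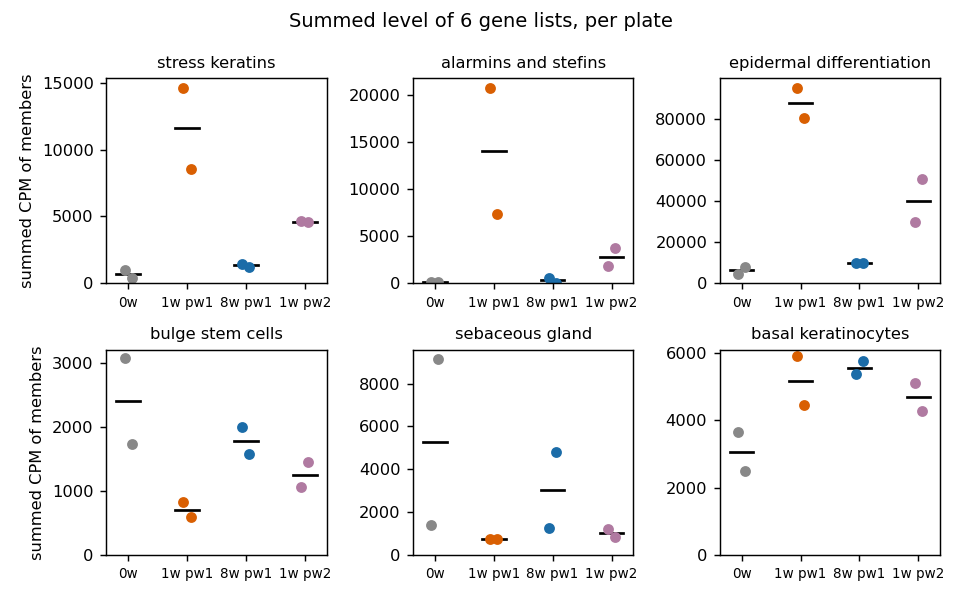
Summed CPM of the members in the table for 6 gene lists, with a point for each plate and a bar for the mean of the 2 plates at each of the 4 time points. Stress keratins, alarmins and stefins, and differentiation genes peak at 1w pw1 (14620 and 8542 CPM for the stress keratins), and bulge genes are lowest there (822 and 592 CPM). The sebaceous sums differ more between the 2 plates of 0w and of 8w pw1 than the 1w pw1 and 8w pw1 replicate 1 sums do.

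Other pathways held 0 called genes at 8w pw1 against 1w pw1. The Wnt, BMP and Notch list had a positive sign in 24 of 26 members and a median of 0.79. Jag2, a Notch ligand, had 2.03 and 1.05 CPM and then 49.5 and 12.9 CPM (adjusted p = 0.185). The retinoid and aldehyde list had a positive sign in 10 of 14 and a median of 0.70. Adh7, an alcohol dehydrogenase that oxidises retinol, had 21.8 and 19.3 CPM and then 70.6 and 127 CPM with 157 and 179.6 CPM at 0w (adjusted p = 0.156). Cell cycle genes had a positive sign in 29 of 35 and a median of 0.64 that changed sign with the plates used. Ccnd2, a D-type cyclin, had 50.99 and 47.8 CPM and then 255 and 173 CPM (adjusted p = 0.135), whereas the mitotic gene Top2a had 50.1 and 72.2 CPM and then 31.4 and 293 CPM and overlapping plates.

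The immediate early and heat shock genes, which also respond to cell dissociation, had a negative sign in 11 of 15 and a median of -1.17. With the stricter filter on cells this median was 0.0050. Fos, a subunit of AP-1, had 525 and 705 CPM at 1w pw1 and 141 and 199 CPM at 8w pw1, and its partner Junb had 38.6 and 53.1 CPM and then 7.56 and 9.26 CPM (adjusted p = 0.178 and 0.178). Unlike the wound genes, Fos stood as high at 0w (486 and 789.7 CPM) as at 1w pw1. The EGF receptor ligands and receptors had a negative sign in 8 of 12 members and a median of -0.96, which ran from -1.41 to -0.044 when a plate was left out. Interferon and antigen presentation genes had a positive sign in 9 of 15 and a median of 0.33 whose sign depended on the setting. The 3 members of the tail scale list had log2 fold changes of -3.22 (Krt84), -1.59 (Mt4) and 1.46 (Krt36). Mt4, a metallothionein, had 577 and 361 CPM and then 233 and 78.8 CPM.

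Where a list held 0 genes called by edgeR, members still reached an unadjusted p below 0.05 in some cases, and DESeq2 called some of them. Of all 13853 genes tested, 886 were higher (6.4%) and 645 lower (4.66%) at an unadjusted p below 0.05 by edgeR. DESeq2, which gave an adjusted p to 13315 of these genes, called 345 higher and 216 lower. The edgeR fit with the replicate block called 66 higher and 44 lower. In the bulge list these were 8 and 5 genes higher, in the sebaceous list 10 and 3, in the Wnt, BMP and Notch list 7 and 4, in the cell cycle list 6 and 4, and in the retinoid and aldehyde list 5 and 4, with 2 lower at an unadjusted p below 0.05. On the lower side there were 8 and 6 clade B serpins (and 1 higher at an unadjusted p below 0.05), 5 and 3 cytokines, 5 and 3 immediate early genes, 4 and 1 glycolysis genes, and 3 and 2 hypoxia targets, with 1 hypoxia target higher by each. The EGF receptor, JZ, hair shaft, tail scale and interferon lists had 0 DESeq2 calls and at most 1 gene in a direction at an unadjusted p below 0.05, and the INFU list had 1 in each direction by both. In lists with calls by edgeR, DESeq2 and the replicate block gave 9 and 6 lower genes for epidermal differentiation, 7 and 5 for alarmins and stefins, 5 and 2 for the cornified envelope, and 3 and 3 for the stress keratins. On the higher side they gave 3 and 2 basal genes and 3 and 3 genes of migration and matrix, where DESeq2 also called 2 lower. With the replicate block, some of the lists with 0 calls held calls: Serpinb12, Serpinb1a and Serpinb3d, Ly6a and Fos lower, and Wif1, Aspn, Jag2, Ccnd2, Oxtr and Adh1 higher. Of the other genes named here, the block also gave calls for Csta1, Csta3, Fam162a, Klk13, Rbp2 and Ggct lower, and for Ackr4, Kitl, Esr1, Dclk1, Smoc2, Inpp4b, Ctnnal1, Ripply3, Trpv2 and Cep97 higher. The hair shaft and inner root sheath list, with 9 tested genes, had a positive sign in 7 and a median of 0.73.

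The share of cells with a read shows whether a plate sum rests on many cells. Each cell was thinned to 20000 reads, which left 80 and 78 cells at 1w pw1 and 81 and 73 at 8w pw1 after 9, 1, 4 and 14 shallower cells were dropped. Krt6b was read in 26.2 and 24.4% of cells at 1w pw1 and in 1.23 and 0% at 8w pw1, and 0 of 73 cells allows a share of up to 4.11%, taking 3 cells as the limit of a count of 0. Sprr1b was read in 30 and 30.8% of cells and then in 1.23 and 0%. Krt6a, in contrast, was still read in 39.5 and 38.4% of cells at 8w pw1, against 58.8 and 56.4% at 1w pw1 and 23.3 and 18.5% at 0w, so its plate sums differed 13.1-fold where the share of cells differed by less than 2-fold. Krt16 went from 43.8 and 33.3% to 19.8 and 13.7%, with 2.33 and 1.23% at 0w, and Calm4 from 85 and 84.6% to 54.3 and 47.9%.

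Among the higher genes, Thbs1 was read in 3.75 and 3.85% of cells at 1w pw1 and in 24.7 and 31.5% at 8w pw1, and Itga2 in 1.25 and 1.28% and 18.5 and 24.7%. Matn2 was read in 6.25 and 5.13% and then in 29.6 and 27.4% of cells. Krt15 was read in 16.2 and 14.1% of cells at 1w pw1, 51.9 and 53.4% at 8w pw1 and 72.1 and 65.4% at 0w, a wider gap than in its plate sums. Vsir was read in 0 of 80 and 0 of 78 cells at 1w pw1, which allows shares of up to 3.75% and 3.85% by the same limit (the two-sided exact intervals drawn in the plot end at 4.51% and 4.62%), and in 12.3 and 5.48% at 8w pw1. Without thinning, the shares were 64.04 and 68.4% and 41.2 and 44.8% for Krt6a and 21.3 and 20.3% and 63.5 and 59.8% for Krt15, at unequal depth.

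**Figure D4:**
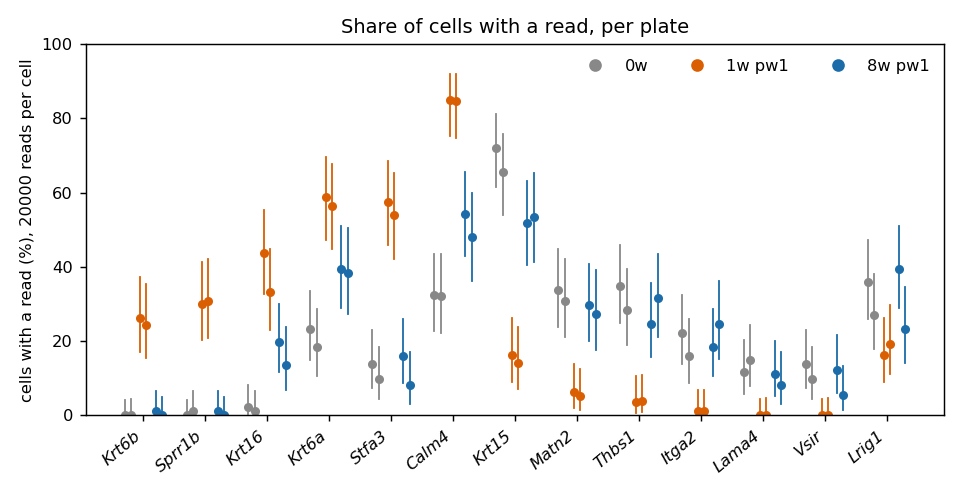
Share of cells with a read at 20000 reads per cell, in percent, for 13 genes on each plate of 0w, 1w pw1 and 8w pw1, with exact 95% binomial intervals as lines. Krt6b and Sprr1b are near 0 at 8w pw1, Krt16, Krt6a and Calm4 lie between their 0w and 1w pw1 shares, and Thbs1, Itga2, Matn2 and Krt15 are lowest at 1w pw1.

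Against unwounded skin, 0 of 13853 genes were called at 8w pw1 by edgeR (0%), with 897 at an unadjusted p below 0.05, whereas 73 were called at 1w pw1 (0.527%), 56 higher (0.404%) and 17 lower (0.123%). These contrasts share plates with the main one. Time point was the only term in their fit, and no counts with the replicate block are given for them, so the 0 holds without the block. The difference between replicate 1 and replicate 2 correlated between 0w and 8w pw1 with r = 0.213 across genes. In the bulge list the median log2 fold change against 0w was -1.78 at 1w pw1 and -0.40 at 8w pw1, in the sebaceous list -3.44 and -0.88, and in the basal list -1.33 and 0.74. In the stress keratin list it was 8.64 at 1w pw1 and 3.52 at 8w pw1. The members at 8w pw1 were Krt16 at 5.05, Krt6b at 4.27, Krt6a at 2.77 and Krt17 at 0.51. The value of Krt6b rests on 4 counts at 8w pw1 against no count at 0w, so this median is partly a value at the floor.

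Genes with a long run of a single base stood out on the higher side. Of 470 tested genes whose transcripts hold an unbroken A or T run of 25 bases or more (3.39% of those tested), 78.1% had a positive log2 fold change, with a median of 0.96 against 0.07 for genes with shorter runs, and 29.8% were higher at an unadjusted p below 0.05 against 5.58%. With a run of 35 bases or more the median was 1.46. Such genes took 2.35% and 2.11% of plate counts at 1w pw1, 4.80% and 5.56% at 8w pw1, and 3.72% and 3.08% at 0w. They made up 140 of the 886 genes that were higher at an unadjusted p below 0.05 (15.8%), Trpv2 and Cep97 among them, and none of the called genes, of which 15 had transcripts in GENCODE (all but Cstdc6) with a longest run of 18 bases. With these genes left out the same 16 genes were called. Their part in the other higher genes was not tested.

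**Figure D5:**
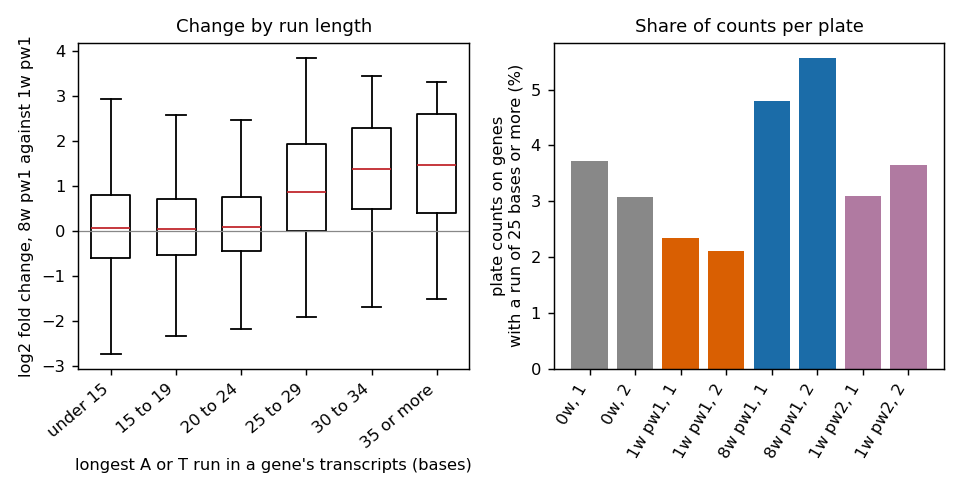
Left, log2 fold change of 8w pw1 against 1w pw1 by the longest A or T run in a gene's transcripts in bases, as boxes for the quartiles with red medians and whiskers without outlying genes. Right, percent of plate counts on genes with a run of 25 bases or more, a bar for each plate. Medians rise from 0.87 at 25 to 29 bases to 1.46 at 35 or more, and the 8w pw1 bars (4.80% and 5.56%) are above the 1w pw1 bars (2.35% and 2.11%).

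Markers of other cells were measured on all 4 plates. The 7 immune markers in the table summed to 3.27 and 3.57 CPM at 1w pw1 and to 3.82 and 17.1 CPM at 8w pw1, and the 5 fibroblast markers to 2.29 and 0.644 CPM and to 15.6 and 5.28 CPM. The 3 melanocyte markers summed to at most 5.95 CPM, and the Merkel cell markers (2 in the table) to at most 3.53 CPM. Alas2, the 1 erythrocyte marker in the table, was at most 2.81 CPM. The 4 endothelial and mural markers in the table summed to 218 and 136 CPM at 1w pw1 and to 857 and 1846 CPM at 8w pw1, most of it Pecam1, an adhesion protein of endothelial cells, with 197 and 109 CPM and then 856 and 1846 CPM (not called). The transcripts of Pecam1 hold an A or T run of 43 bases. Kdr, an endothelial receptor, had at most 0.261 CPM and Rgs5, a marker of pericytes, at most 0.432 CPM. What part endothelial cells have in the results was not tested. Acta2, an actin of muscle cells, had 20.3 and 26.01 CPM at 1w pw1 and 0.504 and 0.196 CPM at 8w pw1 (not called). The keratinocyte marker Krt14 was at 2104 CPM or more on these plates.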

How the data were processed

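The authors sorted single tdTomato+ cells into plates, made Smart-seq2 libraries with 25 PCR cycles, sequenced single ends of 75 bases and deposited one table of expected counts per gene and cell, estimated with Salmon (the submitters' processing notes name Salmon 0.13.1, R 4.0.3 and GRCm38). These estimated counts were not normalised by the authors (96.6% of all values, zeros included, and 87.8% of those above 0 are exactly whole), and 0 columns lacked a sample. The table holds 15652 genes, and the study's filters on cells had already been applied. Reads carry no molecular identifiers, and the library kit does not mark strand. Samples were grouped by the time point in the labels.

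Counts were summed over the cells of each plate and rounded, and tested with edgeR 4.0.16 in R 4.3.3 (quasi-likelihood test, TMM, the default filter on low counts, Benjamini-Hochberg adjustment over 13853 genes, all 8 plates, time point as the only term, biological coefficient of variation 0.61, 4 residual degrees of freedom). Plate totals were 12293095 to 19760763 counts in the 4 plates compared. The members and lists were chosen with earlier results of these data known. Named genes were 8 chosen genes (Lrig1, Krt6a, Krt6b, Krt16, Krt17, Slc2a1, Postn, Ly6a), up to 15 genes per direction (called genes by size of change, then lowest unadjusted p) with plates that do not overlap and an average log2 CPM of at least 4, without predicted gene models, and per list the called members and up to 4 of the highest level. Other list members, the 4 called genes outside this rule, and Bhlhe41, Kdr, Wif1, Lgr5 and Cd34 were named after their values were seen. Lists were described by counts and medians with no set test. For shares of cells, reads were thinned to 20000 per cell. Intervals are exact and two-sided at 95%, the limit for a share of 0 cells is 3 cells, and a fold against 0 counts uses 3 counts over the group. Gene coordinates and transcripts are from GENCODE (GRCm38), upstream windows from RefSeq (GRCm38.p6), matched by symbol (99.1% of genes had transcripts), which may not be the annotation used for counting. Alternatives were DESeq2 1.42.0, RLE size factors, no filter, only the 4 plates, a replicate block, equal weight for every cell, a stricter filter on cells (2000 genes or more, 20% mitochondrial counts or less), each plate's deepest cell or each plate left out, other thinning depths and, chosen after seeing the data, genes with long A or T runs left out.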

Additional observations from a re-analysis of the deposited data

How the results depend on the processing

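All 16 called genes kept their direction in all 17 alternative settings, but not their size: Matn2 ran from 1.16 to 4.09 and Itga2 from 2.14 to 4.82 on the log2 scale. The number of calls moved: DESeq2 gave 561 (345 higher, 216 lower), a fit on only the 4 plates gave 9 (0 higher, with all 6 higher genes among those lost, and 9 lower), and the stricter filter on cells gave 20 (1 higher, 19 lower, with 8 of the 16 still called) and moved the median of all genes by 0.10. RLE size factors gave 15, no filter on low counts 23, equal weight for every cell 22, leaving out the deepest cells 15 and leaving out genes with long A or T runs 16. When a plate was left out the calls ranged from 0 to 23, with 0 to 8 higher and 0 to 19 lower. Without 8w pw1 replicate 1 or replicate 2 there were 0 calls, without 1w pw1 replicate 1 there was 1, without 1w pw1 replicate 2 there were 4 (all lower), without 0w replicate 1 there were 23 (19 lower), and without 0w replicate 2 there were 2 higher genes. Leaving out 8w pw1 replicate 1 or 2 also moved the median of all genes, by -0.19 and -0.15. A lone plate of a time point is then assumed to vary like the others. The causes were not tested beyond the smaller number of plates.

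With the replicate number as a block, edgeR called 110 genes (66 higher, 44 lower), all 16 among them. The labels give no meaning to the number beyond the plate. The difference between replicate 1 and replicate 2 correlated between 1w pw1 and 8w pw1 with r = 0.151 across genes and between other pairs of time points with r from 0.121 to 0.213. The study's methods speak of 2 independent experiments, which the labels do not tie to the numbers. With 2 numbers a time point, whether the numbers pair the plates cannot be settled here.

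The medians of 5 lists changed sign. The migration and matrix median ran from -0.79 to 1.13 when a plate was left out. The cell cycle median was -1.06 with the stricter filter on cells and ran from -0.80 to 1.86 without a plate. The INFU and duct median was -0.55 with equal weight for every cell, -0.28 without the deepest cells and ran from -0.21 to 0.45 without a plate. The immediate early median was 0.0050 and the interferon median -0.32 with the stricter filter, and the latter ran from -0.076 to 0.82 without a plate. Other medians kept their sign but moved by over 1.5 times in at least 1 of the 17 settings: alarmins -10.58 to -5.32, cytokines -2.57 to -0.43, serpins -2.64 to -1.21, cornified envelope -7.47 to -0.98, differentiation -1.69 to -0.77, EGF receptor -1.41 to -0.044, glycolysis -1.09 to -0.32, hypoxia -1.44 to -0.52, bulge 1.08 to 2.15, JZ 0.17 to 1.23, sebaceous 1.19 to 3.01, hair shaft 0.13 to 2.11, tail scale -2.58 to -0.80, retinoid 0.13 to 1.04, and Wnt, BMP and Notch 0.43 to 1.33. The cause was not tested. Depth limits genes with few counts, whose fitted fold changes depend on the prior count.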

Other observations

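Levels 1 week after the second wound belong to no comparison above and are given as values. Krt6b had 92.7 and 299 CPM at 1w pw2, Krt16 276 and 1037 CPM and Krt6a 1070.1 and 1259 CPM, all below the 1w pw1 plates and above the 8w pw1 plates. Sprr1b had 399 and 316 CPM, next to its 1w pw1 level of 434 and 503 CPM. Thbs1 had 60.6 and 28.1 CPM and Itga2 8.33 and 15.6 CPM at 1w pw2, between their 1w pw1 and 8w pw1 levels, and Wif1 had 0 counts.

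Bhlhe41, a transcriptional repressor of the circadian clock whose transcripts hold an A or T run of 39 bases, had 2019 and 457 CPM at 1w pw1 and 8392 and 15882 CPM at 8w pw1, and it was not called (log2 fold change 3.29 ± 0.72 (SE), adjusted p = 0.140). In single cells the share of counts on genes with runs of 25 bases or more had a median of 2.39% and 2.34% at 1w pw1 and of 5.25% and 10.98% at 8w pw1, and the highest cell of a plate had 38.2% and 8.70% at 1w pw1, 69.3% and 58.1% at 8w pw1, and 60.4% and 58.6% at 0w.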
